A study of Mus musculus with 3 samples.

Results

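Heat shock proteins and their co-chaperones were followed in multipotent progenitors (MPPs) of Mef2c-deficient and control mice. They were taken as all probes of the array, control spots left out, that carry 1 of 10 gene names: Hspa1a, Hspa1b, Hspa8, Hspa5, Hsp90aa1, Hsp90ab1, Dnajb1, Hsph1, Hspd1 and Hspe1. Of the 10 names 8 were found, on 15 of 41174 probes, and 8 of 27670 named genes. No probe carried the name Hspa1b or Hsph1. The mutants were Mx1-Cre mice with floxed Mef2c alleles and the controls carried the floxed alleles without Cre. All mice received poly(I:C), 250 µg on each of 4 days, a double-stranded RNA mimic that turns on the Mx1 promoter, and so the Cre recombinase, in blood cells and other tissues. Bone marrow was taken 2 days after the last injection, and 15000 lineage-negative cells positive for c-kit and for Sca-1 were sorted per sample. The mice's age is not in the labels. An effect of Cre alone and loss of Mef2c cannot be told apart. Each of 3 arrays carried 1 mutant library in Cy3 and 1 control library in Cy5, so dye and genotype cannot be told apart either. Whether replicates are separate animals is not stated. The p-values and intervals below cover only variation between these 3 sample pairs, with each gene's variance drawn by limma toward that of all genes.

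Heat shock proteins are chaperones: they hold or refold proteins that have lost their shape. The transcription factor Hsf1 drives the inducible members after heat or proteotoxic stress by binding heat shock elements, inverted repeats of the unit GAA in their promoters. Constitutive members serve protein folding in unstressed cells, in the cytosol, the mitochondria or the endoplasmic reticulum (ER). The ER member Hspa5 answers instead to the unfolded protein response through ER stress elements. Here Hspa1a, Hspa1b, Dnajb1, Hsph1 and Hsp90aa1 were counted as stress-inducible, and Hspa8, Hsp90ab1, Hspa5, Hspd1 and Hspe1 as constitutive.

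RefSeq promoters, 250 bases before the transcript start on the build GRCm38.p6, were matched for 7 of the 10 genes. Hspa8, Hsp90aa1 and Hsp90ab1 had no entry. The inducible Hsp70 pair and Hspa5 are printed in full, 5′ to 3′ on the gene's strand, since the measurements below differ most in the first and since the last carries a different element. Capitals mark a heat shock element of 2 units (GAANNTTC or TTCNNGAA) in Hspa1a and Hspa1b and an ER stress element (CCAAT, any 9 bases, CCACG) in Hspa5. The windows are Hspa1a at chr17:34972157-34972406 on the minus strand, Hspa1b at chr17:34959239-34959488 on the minus strand and Hspa5 at chr2:34771840-34772089 on the plus strand.
Hspa1a: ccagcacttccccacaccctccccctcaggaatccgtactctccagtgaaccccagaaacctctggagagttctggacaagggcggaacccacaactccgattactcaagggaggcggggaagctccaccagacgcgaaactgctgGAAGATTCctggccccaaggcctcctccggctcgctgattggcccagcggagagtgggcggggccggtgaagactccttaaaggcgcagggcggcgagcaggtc
Hspa1b: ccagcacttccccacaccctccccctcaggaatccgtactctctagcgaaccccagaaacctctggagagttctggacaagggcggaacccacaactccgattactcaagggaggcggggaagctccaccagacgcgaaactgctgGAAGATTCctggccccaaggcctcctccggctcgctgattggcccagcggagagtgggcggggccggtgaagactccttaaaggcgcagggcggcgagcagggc
Hspa5: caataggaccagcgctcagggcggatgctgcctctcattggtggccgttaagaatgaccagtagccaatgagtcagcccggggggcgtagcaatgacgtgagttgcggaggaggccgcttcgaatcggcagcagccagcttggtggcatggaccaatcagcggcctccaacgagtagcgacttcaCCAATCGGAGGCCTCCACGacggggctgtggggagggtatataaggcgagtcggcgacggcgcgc
The Hspa1a and Hspa1b windows were identical at 247 of 250 bases (98.8%), the differences from Hspa1a to Hspa1b being C44T, T47C and T249G, counted from 1 at the 5′ end of the window. In both, 96 bases separate the element GAAGATTC from the start. Both strands were searched, and the 3-unit element (GAA and TTC in alternation, any 2 bases between units) contains the 2-unit one, so the matches overlap. Of 32851 promoter windows of the same length, 4218 (12.8%) held a 2-unit element, 153 (0.466%) a 3-unit element, 37 (0.113%) the ER stress element and 4063 (12.4%) the letters TATAAA. No member window held TATAAA, and the Dnajb1 windows held none of these letters.

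Hspd1 and Hspe1 lie head to head, and their windows hold the same 3-unit elements, read from opposite strands of chr1:55088053-55088082. The 30 bases are shown because both genes share them while their measured ratios differ below. Capitals mark the overlapping elements, and in Hsph1, at chr5:149636351-149636380 on the minus strand, a 2-unit element.
Hspd1: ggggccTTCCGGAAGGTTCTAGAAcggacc
Hspe1: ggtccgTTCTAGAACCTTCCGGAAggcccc
Hsph1: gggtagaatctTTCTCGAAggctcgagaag
The matches did not follow the classes used here. Among the member windows only those of Hspd1 and Hspe1, counted as constitutive, held 3-unit elements. The inducible Hspa1a, Hspa1b and Hsph1 held a 2-unit element and Dnajb1 held none. A match in these windows is a description of the letters and was not tied to binding of a factor.

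In a single channel 73.4% to 80.4% of the probes exceeded background, and saturated spots numbered 0. All 15 member probes passed the filter on dim probes. Marker genes were looked up. Kit and Ly6a (Sca-1), which the gate above names, and Cd34, Flt3 and Ptprc (CD45) were well above background in all 6 libraries. So were 6 of 7 measured lineage genes, the exception being Cd3d in 5, so this measure does not check the gate. Control 1 stood apart in markers of neutrophils, cells that the sort was meant to remove. The summed signal of 8 neutrophil genes there was 97291, against 10775 and 13917 in the other controls and 10680 to 14925 in the mutants. In bulk samples, fewer cells of a type and less RNA per cell cannot be told apart. The direction of array 2 is unsettled. The correlation of the deposited ratios with the scanner's Cy5 over Cy3 ratio was -0.947, 0.935 and -0.939 on arrays 1, 2 and 3, although the labels give the same dyes on all. Ratios below are log2 of mutant over control as labelled. For each member the mean with the sign of array 2 turned is also given.

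By limma, 0 of 22220 genes (0%) passed at an adjusted p under 0.05, and so 0 of 8 members were called. At an unadjusted p under 0.05, 1069 genes (4.81%) were higher in the mutant and 1182 (5.32%) lower, and of the members only Hspe1, which was higher, was among them. That membership moved with the setting: with array 2 turned, or without array 2, Hspa1a was the only member under this limit, and was lower. Dnajb1 was the only one with median centring, also lower, and Hspa5 without array 1, where it was higher. The median log2 ratio was 0.04 over the 8 members and -0.04 over all genes. As labelled, the mutants lay below all controls for 1 of 8 members, Dnajb1, where 11.8% of all genes did. They lay above all controls for 1 of 8 members, Hspe1, where 7.22% did. With mutant 2 and control 2 exchanged, the groups overlapped for both genes. Hspa1a differed more between libraries of the same genotype than between the genotypes.

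Hspa1a encodes the stress-inducible cytosolic Hsp70. It was measured by 4 probes, and those read 2 different targets: the annotation of 2 probes also lists the transcript of Hspa1b, its near-identical neighbour, whereas that of the other 2 lists Hspa1a alone. The array places the first pair at chr17:33068671-33068730 and chr17:33067263-33067322 and the second at chr17:33066911-33066970 and chr17:33066941-33067000, all on the minus strand, on a build that the sources used here do not name. The second pair shares 30 bases and is not independent. Hspa1a has no introns, so these probes lie in its single exon, and whether they fall in coding sequence or UTR was not determined on that build. Signal of the first pair may come from either gene, and Hspa1b has no value of its own.

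The brightest probe, which also lists Hspa1b and was the one tested, had log2 levels of 11.83, 13.83 and 10.25 in mutants 1, 2 and 3 and of 13.50, 11.72 and 10.68 in controls 1, 2 and 3. Mutant 2 and control 1 were the highest libraries and array 3 held the lowest, so the groups overlapped throughout. The range over the libraries was 3.58, or 11.9-fold, larger than that of 99.7% of genes, whose median range was 0.90. Its log2 ratios were -1.68, 2.11 and -0.43, opposite on arrays 1 and 2. They averaged 4.5e-05 ± 1.93 (SD, n = 3; limma adjusted p = 1), with a 95% interval from -1.68 to 1.68. The interval is so wide that its bounds are as large as the difference on array 1, which was 3.2-fold. It uses limma's moderated variance and leaves out the array 2 ratio of 2.11, so it does not measure this gene's spread between arrays.

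The other probe that also lists Hspa1b had log2 levels of 10.67, 13.20 and 8.64 in mutants 1, 2 and 3 and of 13.62, 10.11 and 8.83 in controls 1, 2 and 3. Its log2 ratios were -2.95, 3.09 and -0.19. The Hspa1a-only probes ordered the libraries of arrays 1 and 2 in the same way, with larger differences. One had log2 levels of 8.95, 11.30 and 6.15 in the mutants and 12.87, 7.10 and 5.74 in the controls, and ratios of -3.92, 4.20 and 0.41. The other had 9.01, 11.33 and 6.63 in the mutants and 12.74, 7.24 and 6.52 in the controls, and ratios of -3.74, 4.08 and 0.11. Neither was well above background in mutant 3 or control 3, so their array 3 ratios carry no measured level. On array 1 the first of them was 15.1-fold higher in the control, the 41st lowest ratio of 32888 probes, and on array 2 it was 18.3-fold higher in the mutant, the 2nd highest of 32901.

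**Figure D1:**
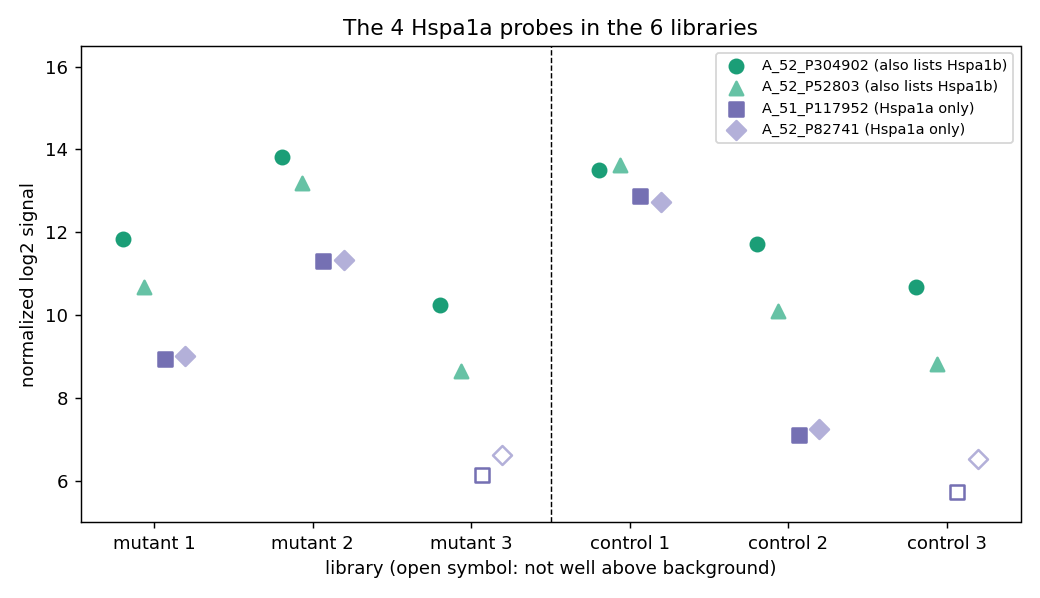
Normalized log2 signal (vertical axis) of each Hspa1a probe in the 6 libraries (horizontal axis), with 1 symbol per probe and library, and open symbols where the probe was not well above background. All 4 probes are high in mutant 2 and control 1 and low in mutant 3 and control 3, where the Hspa1a-only probes are open.

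The same was visible before normalization. The background-subtracted intensity of the first Hspa1a-only probe was 322.9 in mutant 1 against 9765 in control 1, and 1635 in mutant 2 against 138.7 in control 2. On array 3 it was 11.29 and -6.097. Across all genes, 8.89% had a log2 ratio of -1 or lower on array 1, 4.44% had 1 or higher on array 2, and 60 genes (0.27%) had both, Hspa1a among them. That pair of limits was chosen after the values of Hspa1a were seen. In the authors' deposited table the 2 Hspa1a-only probes have the same sign on arrays 1 and 2, at -3.98 and -4.31 for the first and -3.80 and -4.23 for the second. With array 2 turned, the tested probe's mean was -1.40 ± 0.87 (SD, n = 3; limma adjusted p = 1), and those of the other 3 were -2.08, -2.57 and -2.57. Whether Hspa1a was lower in the mutant on every array where a probe was above background, or opposite between arrays 1 and 2, therefore depends on the unsettled direction of array 2. Its spread over the libraries does not.

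Dnajb1, the Hsp40 co-chaperone that delivers clients to Hsp70 and stimulates its ATPase, had log2 levels of 12.44, 12.36 and 12.45 in mutants 1, 2 and 3 and of 14.03, 12.69 and 12.56 in controls 1, 2 and 3. The mutants lay close together, with an SD of 0.05, and as labelled every control lay above them, control 1 by far. The log2 ratios were -1.59, -0.32 and -0.10, below 0 on all 3 arrays as labelled, as for 20.3% of genes. With array 2 turned that array is above 0 and the mean is -0.46. As labelled, the mean was -0.67 ± 0.80 (SD, n = 3; 95% interval from -1.50 to 0.16; limma adjusted p = 0.517). Without array 1 it was -0.21. Its second probe had -1.37, -0.01 and -0.25, with the groups overlapping. In mutant 2, the library with the highest level of the tested Hspa1a probe, the tested Dnajb1 probe lay below every control. The second Dnajb1 probe had 12.20 in mutant 2, its highest mutant, against 13.02 in control 1 and 12.21 in control 2.

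Hsp90aa1, the inducible cytosolic Hsp90, had log2 levels of 14.61, 14.87 and 14.38 in the mutants and 14.92, 14.29 and 14.38 in the controls. As with Hspa1a, control 1 and mutant 2 were its highest libraries, but its range was only 0.63. The log2 ratios were -0.31, 0.58 and -0.004, with a mean of 0.09 ± 0.45 (SD, n = 3; 95% interval from -0.53 to 0.71; limma adjusted p = 0.908). With array 2 turned the mean was -0.30.

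Hsph1 (Hsp110), which exchanges the nucleotide of Hsp70, is named Hsp110 on the array and was matched by its accession, outside the rule. Its dim probe had log2 levels of 9.45, 7.58 and 7.04 in the mutants and 8.31, 7.70 and 7.85 in the controls. The log2 ratios were 1.14, -0.12 and -0.81, without a common direction, and the mean was 0.07 ± 0.99 (SD, n = 3; limma adjusted p = 0.956). The probe was not well above background in mutant 3, so the array 3 ratio carries no measured mutant level. With array 2 turned the mean was 0.15. Mutant 1, not control 1, was its highest library.

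Among the constitutive members, Hspa8 and Hsp90ab1, the housekeeping cytosolic Hsp70 and Hsp90, varied least by their brightest probes, with ranges of 0.42 and 0.30 over the libraries, but their second probes ranged over 1.21 and 0.92. Hspa8 had log2 levels of 16.14, 16.45 and 16.38 in the mutants and 16.05, 16.16 and 16.47 in the controls. Its log2 ratios were 0.09, 0.29 and -0.09, with a mean of 0.09 ± 0.19 (SD, n = 3; 95% interval from -0.42 to 0.61; limma adjusted p = 0.874), or -0.10 with array 2 turned. Its second probe had 0.52, 0.69 and -1.03. The array places its probes on chromosome 5 whereas RefSeq places Hspa8 on chromosome 9, so their target is uncertain. Hsp90ab1 had log2 levels of 15.96, 16.12 and 15.99 in the mutants and 16.21, 16.09 and 16.26 in the controls. The mean log2 ratio was -0.16 ± 0.17 (SD, n = 3; 95% interval from -0.68 to 0.35; limma adjusted p = 0.773), or -0.19 with array 2 turned, and its second probe had 0.44, 0.71 and -0.62. For both genes the 2 probes thus disagreed in size or sign, and the intervals leave room for differences of up to 0.61 upward and 0.68 downward.

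Hspd1 and Hspe1 encode the chaperonin Hsp60 and its lid Hsp10, which fold proteins in the mitochondrial matrix and share the promoter printed above. Hspe1 had log2 levels of 14.69, 14.85 and 14.68 in the mutants and 14.27, 14.10 and 14.22 in the controls, with no overlap as labelled. Its log2 ratios were 0.42, 0.75 and 0.47, above 0 on all 3 arrays, as for 15.2% of genes, with a mean of 0.54 ± 0.18 (SD, n = 3; 95% interval from 0.03 to 1.06; limma adjusted p = 0.483). Hspd1 had log2 levels of 15.83, 15.72 and 15.41 in the mutants and 16.07, 15.62 and 15.53 in the controls, and these overlapped. Its mean log2 ratio was -0.09 ± 0.17 (SD, n = 3; limma adjusted p = 0.887). Its second probe had 0.22, 0.48 and 0.09. As labelled, the log2 ratio of Hspe1 exceeded that of Hspd1 by 0.65, 0.65 and 0.59 on arrays 1, 2 and 3. This difference depends on the Hspd1 probe. With array 2 turned, the mean of Hspe1 was 0.05 and that of Hspd1 was -0.15.

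Hspa5 (BiP), the Hsp70 of the ER, had log2 levels of 15.66, 15.81 and 15.90 in the mutants and 15.74, 14.95 and 15.14 in the controls. Controls 2 and 3 were low, and control 1 lay among the mutants. The log2 ratios were -0.08, 0.86 and 0.76, with a mean of 0.51 ± 0.52 (SD, n = 3; 95% interval from -0.14 to 1.17; limma adjusted p = 0.525). Without array 1 the mean was 0.81, and with array 2 turned it was -0.06. Hsp90b1 (Grp94), the Hsp90 of the ER, had -0.11, 0.87 and 1.05 on the same arrays, so its values lay within 0.03 of those of Hspa5 on arrays 1 and 2.

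**Figure D2:**
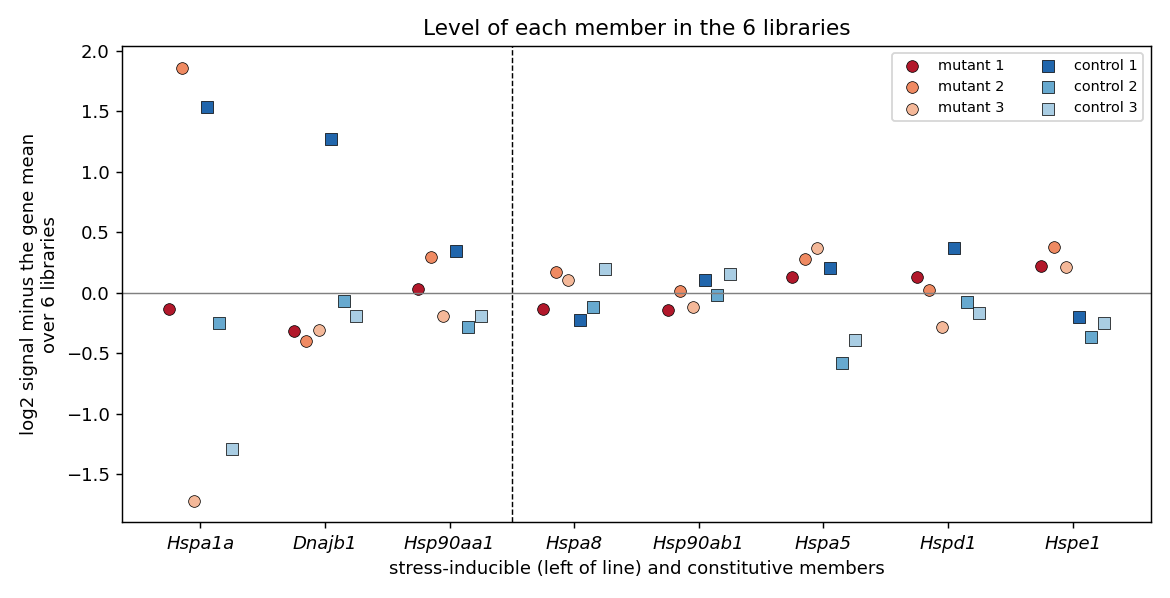
Log2 signal of each member's tested probe minus the gene's mean over the 6 libraries (vertical axis) by member (horizontal axis), circles for mutants and squares for controls. Hspa1a spreads over 3.58 with mutant 2 and control 1 on top, Dnajb1 is high in control 1, and the constitutive members range over 0.30 to 0.95 by these probes.

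**Figure D3:**
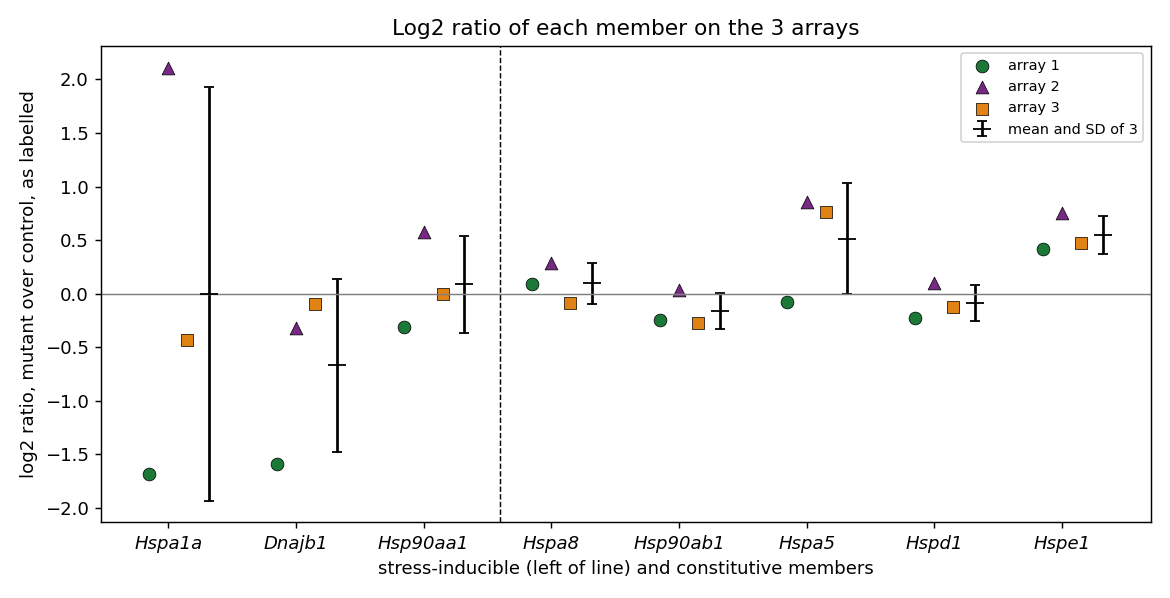
Log2 ratio of mutant over control as labelled (vertical axis) for each member (horizontal axis) on arrays 1, 2 and 3, with the mean and SD of the 3 as a bar. Hspa1a has -1.68 and 2.11 on arrays 1 and 2, and as labelled Hspe1 is above 0 and Dnajb1 below 0 on every array.

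Set side by side, the 3 inducible members measured by the rule had mean log2 ratios of -1.19, 0.79 and -0.18 on arrays 1, 2 and 3, and the 5 constitutive members -0.01, 0.40 and 0.15. The inducible members lay -1.18, 0.38 and -0.33 relative to the constitutive ones, a mean difference of -0.38 ± 0.78 (SD, n = 3), smaller than its spread between arrays. Centred on each gene's mean, the inducible members averaged 1.05 in control 1 and 0.59 in mutant 2, and -0.74 in mutant 3. Without Hspa1a these averages were 0.81, -0.05 and -0.25, so the values of mutants 2 and 3 rested mainly on Hspa1a. The constitutive members averaged between -0.23 and 0.17 in all libraries, but single ones ranged over 0.30 to 0.95 by their tested probes. Those probes were bright, at log2 levels of 14.10 to 16.47 against a median of 10.20 over all genes. Without Hspa1a the differences were -0.94, -0.28 and -0.20, so the positive value of array 2 rested on Hspa1a. With Hsph1 added the mean difference was -0.31 ± 0.41. Without array 1 the difference was 0.03 and without array 2 it was -0.76. By range over the libraries, 1 of 8 members, Hspa1a, reached 2 on the log2 scale, where 6.09% of genes did.

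Other genes were high in control 1, 1 of the 2 libraries in which Hspa1a was high. Immediate early genes, the rapid transcription factors and regulators such as Fos and Egr1 that follow many stimuli, were highest in control 1 for 13 of 13 measured genes, where 25.6% of all genes were. Their summed signal was 692360 there, against 76803 to 207002 in the other 5 libraries. Fos had log2 levels of 10.10, 13.18 and 12.18 in the mutants and 16.59, 13.82 and 12.18 in the controls. Neutrophil markers were also highest there, for 7 of 8 genes. In mutant 2 the summed signals were 143933 for the immediate early genes and 14925 for the neutrophil markers. The first was the highest of the mutants and below controls 2 and 3, at 207002 and 162230. The second was the highest after control 1, above the 10680 to 13917 of the other 4 libraries. By the median of centred levels, the immediate early genes were at -0.56 in mutant 2, -0.54 in mutant 3 and -0.73 in control 3. The order of these libraries for that list thus depended on the measure. The part of these lists in the Hspa1a and Dnajb1 levels was not tested. Over the list of immediate early genes arrays 1, 2 and 3 had mean log2 ratios of -4.80, -0.66 and -0.03.

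**Figure D4:**
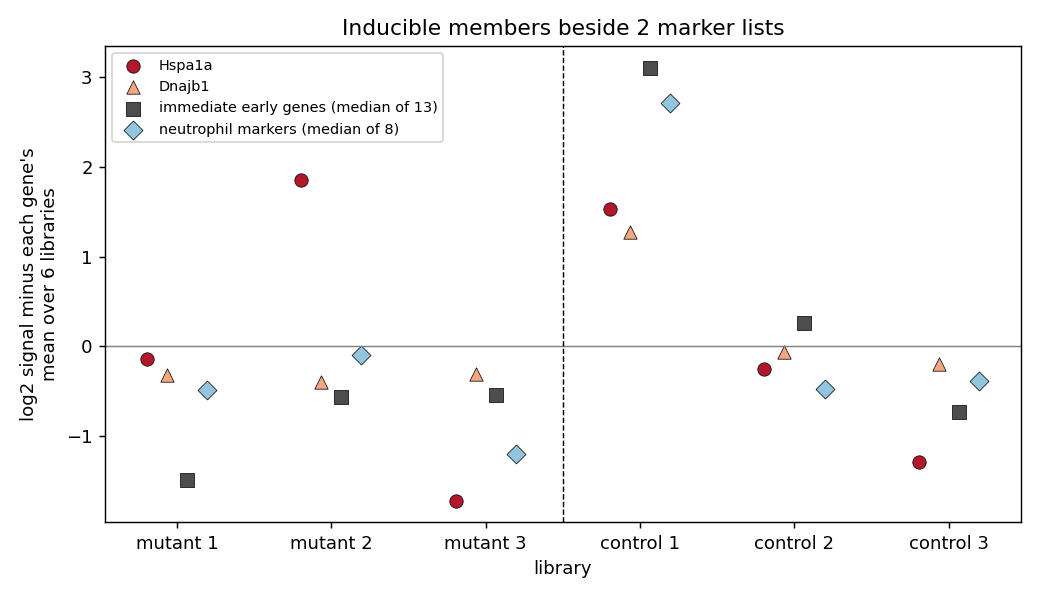
Log2 signal minus each gene's mean over 6 libraries (vertical axis) by library (horizontal axis), for Hspa1a and Dnajb1 and as the median of 13 immediate early genes and of 8 neutrophil markers. In control 1 all are high, the lists at 3.11 and 2.71, whereas in mutant 2 Hspa1a is high at 1.86 and the lists are at -0.56 and -0.10.

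The genes nearest to Hspa1a over the 6 centred levels, by Euclidean distance among 19492 genes above background in every library, were the clone AK019700 at 1.35, the transcript ENSMUST00000048418 at 1.51, Coq4 at 1.56, Per1 at 1.65 and S100g at 1.76. The median distance of all genes was 3.31. Coq4 belongs to coenzyme Q synthesis, Per1 to the circadian clock, and S100g encodes a calcium-binding protein. In mutant 2 and control 1 the centred levels were 1.87 and 1.57 for AK019700 and 1.86 and 1.53 for Hspa1a. Per1 had 0.63 in mutant 2 and was highest in control 1.

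The rest of the pathway was described from lists, none of which had a member called over all genes. As labelled, 45.4% of all genes lay above 0 (median -0.04), 4.81% were higher at an unadjusted p under 0.05 and 5.32% lower. With median centring 33.4% of all genes lay above 0 (median -0.18), so a list's lower median there is in part that shift, and with array 2 turned 48.3% did (median -0.01). Means of single genes in the lists below are as labelled only. A gene with the same sign on every array, such as Stip1 or Hyou1, loses that agreement when array 2 is turned. Of 3 heat shock factor genes and the gene of their binding protein, 3 of 4 lay below 0, with a median of -0.14, or -0.06 with array 2 turned. Hsf1, the master regulator of the response, had -0.67, 0.06 and -0.11 on arrays 1, 2 and 3 and a mean log2 ratio of -0.24 ± 0.38 (SD, n = 3). Hsf2 had a mean of 0.14 ± 0.39, Hsf4 of -0.04 ± 0.18 and Hsbp1, which binds Hsf1, of -0.23 ± 0.24. Among 5 other targets of Hsf1, 4 lay below 0, with a median of -0.33 (-0.59 with median centring and -0.18 with array 2 turned): the ubiquitin gene Ubb had -0.33 ± 0.23, and the collagen chaperone gene Serpinh1 had -0.35 ± 0.34. Cacybp lay above 0 at 0.36 ± 0.34. By limma 0 of the 5 passed at an unadjusted p under 0.05.

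Of 8 other Hsp70 and Hsp110 genes, 5 lay above 0, with a median of 0.19. At an unadjusted p under 0.05, 2 of them were higher and 1 was lower. With median centring the median was -0.03, against -0.18 over all genes, and with array 2 turned it was -0.01, that of all genes. Hspa2, best known from the testis, had a mean log2 ratio of -0.78 ± 0.38 (SD, n = 3). Hspa4, a Hsp110 relative, had 0.57 ± 0.30 and Hspa13 had 0.72 ± 0.54. Hspa14, which works at the ribosome, had 0.77 ± 0.84. Small heat shock proteins, which hold unfolded clients, mostly lay below 0, with 5 of 7 below and a median of -0.13, which was -0.28 with median centring and -0.11 with array 2 turned. Hspb1 (Hsp25) had -1.12, -0.11 and -0.27, its highest level lying in control 1 at 10.29. Hspb2 had a mean of -0.13 ± 0.11, Hspb6 of 0.23 ± 0.83 and Cryab of -0.18 ± 0.43.

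J-domain co-chaperones, the family of Dnajb1, went both ways, with 6 of 10 below 0 and 2 lower at an unadjusted p under 0.05 (median -0.10, and -0.17 with array 2 turned). Dnaja4 had a mean log2 ratio of -0.68 ± 0.22 (SD, n = 3) and Dnajb2 of -0.81 ± 0.69. Dnaja2 lay above 0 at 0.50 ± 0.34. Dnajb4 had -1.54, 0.66 and -0.46 on the 3 arrays, the same signs as the tested Hspa1a probe, and control 1 and mutant 2 were its highest libraries at 12.92 and 12.38. Among 7 nucleotide exchange factors of Hsp70, 4 lay above 0 and 1 was higher at an unadjusted p under 0.05 (median 0.08, -0.03 with median centring and 0.10 with array 2 turned). Bag2 had 0.78 ± 0.54, Bag5 0.50 ± 0.40, Bag4 0.17 ± 0.51 and Hspbp1 -0.18 ± 0.27.

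Co-chaperones of Hsp90 lay above 0 in 11 of 12 genes, with a median of 0.30 against -0.04 over all genes, although the cytosolic Hsp90 genes themselves had means of 0.09 and -0.16. With median centring 10 of 12 lay above 0 (median 0.20, against -0.18 over all genes), and with array 2 turned 9 did (median 0.08). By limma's unadjusted p under 0.05, 1 of the 12 was higher and none was lower. Stip1 (Hop), which links Hsp70 to Hsp90, had log2 ratios of 1.29, 0.92 and 0.68 and a mean of 0.96 ± 0.31 (SD, n = 3; limma adjusted p = 0.462). The immunophilins Fkbp4 and Fkbp5 had means of 0.57 ± 0.51 and 0.53 ± 0.40, and the myosin chaperone gene Unc45a had -0.61 ± 0.61. The cytosolic chaperonin TRiC, which folds actin and tubulin, lay above 0 in 7 of 8 subunits, with a median of 0.28 and 0 at an unadjusted p under 0.05. Median centring left 6 of 8 above 0 (median 0.09, against -0.18 over all genes), as did turning array 2 (median 0.06). Cct7 had 0.45 ± 0.18, Cct6a 0.40 ± 0.26, Cct8 0.38 ± 0.11 and Cct2 0.34 ± 0.19.

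In the ER, where Hspa5 works, 13 of 16 chaperone and unfolded protein response genes lay above 0, with a median of 0.33, and 3 were higher at an unadjusted p under 0.05. With median centring 10 lay above 0, with a median of 0.19 against -0.18 over all genes. With array 2 turned 6 did, with a median of -0.04 against -0.01. Hyou1, the Hsp110 partner of Hspa5, had log2 ratios of 1.44, 1.03 and 1.51 (mean 1.33 ± 0.26, SD, n = 3; limma adjusted p = 0.462). Sdf2l1, a cofactor of ER J-domain proteins, had 1.14, 1.80 and 0.81 (mean 1.25 ± 0.51). Xbp1, a transcription factor of the response, had a mean of 0.67 ± 0.35 and the lectin chaperone gene Canx of 0.81 ± 0.88. The 2 remaining Hsp90 genes also lay above 0: the ER gene Hsp90b1 had a mean of 0.60 ± 0.62 and the mitochondrial gene Trap1 of 0.64 ± 0.27, the latter at a limma adjusted p of 0.468. In the mitochondria, 4 of 7 proteases and chaperones lay above 0, with a median of 0.05, and 1 was higher at an unadjusted p under 0.05. The median was -0.02 with median centring and 0.10 with array 2 turned. Clpp, a matrix protease, had 1.03 ± 0.62, Lonp1 0.26 ± 0.24, Yme1l1 0.25 ± 0.59 and Afg3l2 -0.14 ± 0.29.

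**Figure D5:**
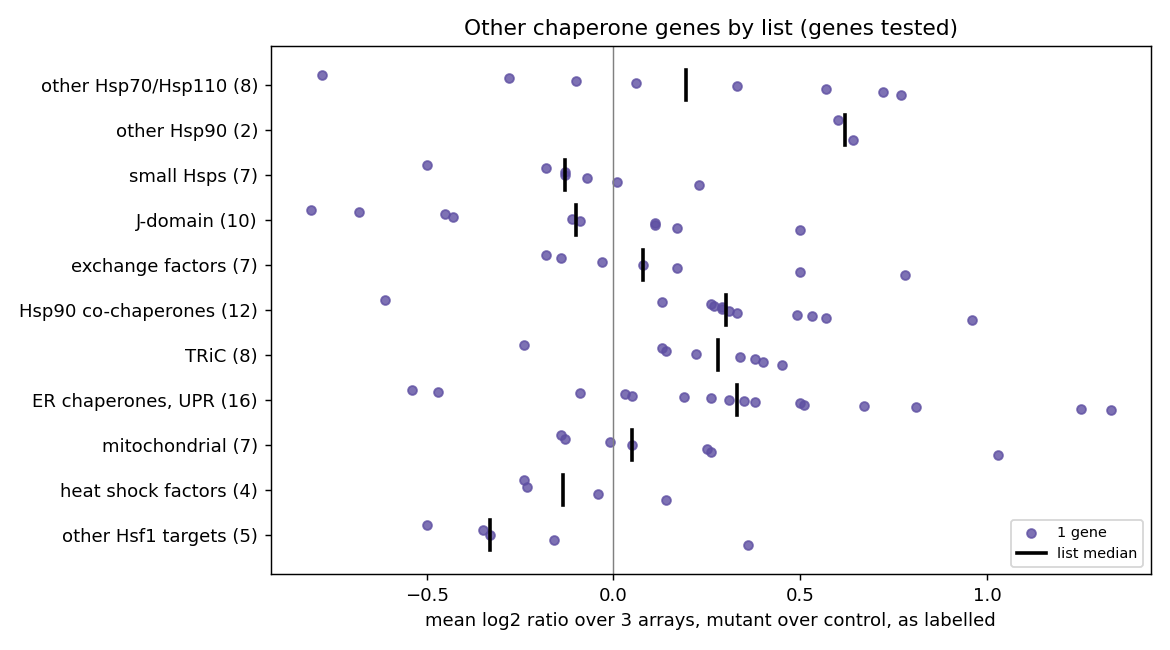
Mean log2 ratio over 3 arrays, mutant over control as labelled (horizontal axis), of each tested gene (points) by list (vertical axis), with the list's median as a bar. As labelled, the Hsp90 co-chaperones, TRiC and the ER list have medians of 0.30, 0.28 and 0.33 (the last is -0.04 with array 2 turned), the small heat shock proteins and other Hsf1 targets -0.13 and -0.33.

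Other cell types were checked with marker lists. Macrophage markers lay above 0 in 5 of 6 genes with a median of 0.24 (0.16 with array 2 turned). As labelled, their summed signal was 13564 to 16626 in the mutants and 11196 to 12497 in the controls. With mutant 2 (14343) and control 2 (11196) exchanged, these ranges overlap. Erythroid markers lay above 0 in 3 of 5 genes with a median of 0.07 (-0.19 with median centring and 0.02 with array 2 turned). They went both ways: Hba-a1 and Slc4a1 had mean log2 ratios of -1.68 ± 1.03 and -1.32 ± 0.87 (SD, n = 3), both lower at an unadjusted p under 0.05, and Klf1 had 0.63 ± 0.70. Their summed signal was highest in control 1, at 41008 against 8486 to 18343 elsewhere. Stroma and endothelium markers lay below 0 in 4 of 5 genes with a median of -0.28 (-0.11 with array 2 turned), and their summed signal ran from 9352 to 12720. Neutrophil markers lay below 0 in 6 of 8 genes with a median of -1.40 (-1.45 with array 2 turned), 3 of them lower at an unadjusted p under 0.05. The 5 genes Kit, Ly6a, Cd34, Flt3 and Ptprc, of which the gate names only Kit and Ly6a, had a median of -0.29 (0.07 with array 2 turned). The 7 measured lineage genes had a median of -0.13, but single genes differed more. As labelled, Flt3 had a mean log2 ratio of -1.15 ± 0.12 and Ly6a of 0.82 ± 0.27 (SD, n = 3). The lineage genes Itgam and Cd3g had -1.05 ± 0.23 and -0.77 ± 0.20, and all 4 had an unadjusted p under 0.05. Their array 2 ratios as labelled were -1.26, 0.51, -1.05 and -0.76, of the same sign as on arrays 1 and 3. With array 2 turned these signs no longer agree and the means are smaller in size. The part of these lists in the chaperone values was not tested.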

How the data were processed

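Per the labels' protocols, mRNA of the sorted cells was amplified by a global PCR of cDNA (SuperAmp), and 250 ng was labelled. Per the file headers, Agilent Feature Extraction 9.5.1.1 wrote linear spot intensities, processed signals and a red over green log10 ratio, which served only to check direction. The authors also deposited log2 ratios per spot, with array medians of -0.0148, 0.0129 and -0.00249. Their centring is not stated and the direction of array 2 is unknown. The submitters' processing notes name limma, and further steps are not given in the sources used here. All 3 arrays lay on 1 slide. Here limma 3.58.1 (R 4.3.3) was applied: normexp (offset 50), loess within arrays with control spots at weight 0, outlier spots left out (300, 331 and 252), Aquantile for single-channel levels, then lmFit and eBayes with Benjamini-Hochberg adjustment over all genes. The 95% intervals come from this fit. Probes had to be well above background in 1 channel on at least 2 arrays (32906 of 41174), and each gene's brightest probe was tested (22220 genes). Symbols came through RefSeq accessions (22951 probes), symbols (6659) or synonyms (3109), and 8455 kept the file's name. The fit was run on simulated ratios with known changes added. These modelled neither the joint change of dye and genotype nor the direction of array 2, so the run checks the code only. The members and lists were chosen with earlier results of these data known. Besides the members, up to 4 genes of each list are named, those of largest mean ratio among genes above background in every library, and the 5 nearest to Hspa1a. Of these lists, 18 cover other pathway genes and cell type markers. The promoters of Hspa8, Hsp90aa1 and Hsp90ab1 were not analysed here. One gene that the naming rule picked is not reported here.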

Additional observations from a re-analysis of the deposited data

How the results depend on the processing

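Each array holds 1 mutant and 1 control library, so the test on the 3 ratios is the paired analysis and no further replicate block could be fitted. With 3 arrays and no dye swap in the labels, precision is limited by the number of arrays, and the array 3 ratios of the Hspa1a-only probes by signal near background. By limma 0 genes passed at an adjusted p under 0.05 in the 10 alternatives. At an unadjusted p under 0.05, 1182 genes were lower and 1069 higher. These counts were 2320 and 552 with median centring, which shifted the median ratios to -0.20, -0.20 and -0.11 on the 3 arrays, and 308 and 337 with array 2 turned. Leaving out an array gave 663 to 1377 lower and 633 to 1354 higher, the fewest without array 1. Of 80 values (8 members, 10 alternatives), 64 kept their sign and 16 did not, all of members that did not pass, and the lowest adjusted p was 0.381. The cause of the changes was not tested. Median centring gave -0.11 for Hspa1a, -0.07 for Hsp90aa1 and -0.22 for Hspa8. Turning array 2 gave -1.40, -0.30 and -0.10 for these and -0.06 for Hspa5. Hspa1a, whose mean is near 0, was at -0.0020 without background correction and -0.0019 in the authors' deposited table turned as labelled. Feature Extraction's processed signals gave 0.08 for Hsp90ab1 and 0.08 for Hspd1, and the mean of all probes gave 0.01 and 0.09. Leaving out an array gave -1.05 to 0.84 for Hspa1a, -0.16 to 0.29 for Hsp90aa1 and -0.0014 to 0.19 for Hspa8, the lowest without array 2. The difference of inducible and constitutive members ran from -0.76 to 0.03 with an array left out and was -0.63 with array 2 turned. The sets with Hsph1 and without Hspa1a were chosen after seeing the data. The Hspa1a range was 3.44 without Aquantile and 3.52 with processed signals.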
